A study of Brachypodium distachyon with 89 samples.

Results

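The genes described here are 115 of the 24467 genes measured in Brachypodium distachyon, a small temperate grass, and they encode the MYB transcription factors outside the circadian clock. They were chosen by the words "myb domain protein" or "myb-like" in the description of the best Arabidopsis match that the authors' table gives to each gene, and the 6 clock genes that were to be set aside carry neither phrase. Of the members, 91 were matched to a numbered MYB gene, 12 and 10 to 2 myb-like groups, and 2 to other proteins, 1 of which (Bradi5g07300) is a DnaJ co-chaperone with a Myb-like domain rather than a typical MYB factor. They have 65 different matches, and 79 members share their match with another, so 1 Arabidopsis name can stand for up to 5 genes. Names below are those of the match with the Brachypodium identifier, and the roles given are those known in Arabidopsis.

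Plants of the ecotypes Bd21 and Bd21-3 were 14 days old and grew under 16 h of light and 8 h of darkness. They were kept under water at 70 µE (submergence, S), beside the tanks at the same reduced light but without water (low light, LL), or undisturbed at 150 µE (normal growth, NG). Aboveground tissue was taken at ZT0, ZT8, ZT16, ZT20 and ZT24, where ZT counts the hours from lights on and submergence had begun on the evening before ZT0. For each library 5 plants were pooled, with 3 libraries per group and 2 for Bd21 in LL at ZT24, 89 in all. The study describes Bd21 as the more sensitive and Bd21-3 as the more tolerant ecotype. Plants taken at 1 time shared a tank, so tank and ZT cannot be told apart, and p-values measure the spread between pools. Reads of both ecotypes were aligned to the genome of Bd21.

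MYB proteins bind DNA through imperfect repeats of the MYB domain. In plants the family has grown into groups that switch on or hold back whole branches of metabolism and development. Some activate lignin and the thick walls of xylem, others the waxes and suberin of the surface, and others flavonols and anthocyanins. Further members answer to cold, defence, phosphate and nitrate, or set leaf polarity and cell division.

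Levels are CPM, in which the authors divided reads by each library's effective size, and are not corrected for gene length, so levels of different genes are not compared. Between 3896851 and 16044727 reads stood behind a library, and 1 read was worth 0.0608 to 0.261 CPM, so values under 1 CPM rest on few reads. All 11 green leaf markers were detected in every treatment, and 2 root markers together reached at most 12.3 CPM. The summed green leaf markers ran from 1250 to 21738 CPM in S, against 16433 to 53601 CPM in LL, in Bd21, and from 2372 to 13053 CPM in S, against 18730 to 51453 CPM in LL, in Bd21-3. In bulk tissue, fewer cells of a type and less RNA per cell cannot be told apart. Replicate 3 of Bd21 in LL at ZT16 stood apart from its group, with a mean correlation of 0.919 to the others, the lowest of all libraries.

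Submergence raised 14 of the MYB genes and lowered 15, and no member rose at 1 ZT and fell at another. A differentially expressed gene (DEG) had a log2 fold change (log2FC, on log2(CPM + 1)) of at least 1.5 in either direction, a limma p adjusted over all genes under 5e-06, and averaged 15 CPM or more in either group. In Bd21, 10 of the 114 members tested rose at 1 or more ZT in S over LL, or 8.77%, beside 7.03% of all genes, and 11 fell, or 9.65%, beside 8.42%. In Bd21-3, 14 members rose, or 12.3%, beside 7.5% of all genes, and 13 fell, or 11.4%, beside 9.95%. The shares of members were thus near or above those of all genes, with the widest gap among the risers in Bd21-3, and the gaps were not tested. The shares are not fully comparable, since 47.0% of members but 60.7% of all genes reached 15 CPM in a group. The 10 genes up-regulated in Bd21 were all among the 14 of Bd21-3 (71.4% of these), and 9 fell in both ecotypes, 81.8% of those in Bd21 and 69.2% of those in Bd21-3. Over all genes the shared share was 76.9% of the risers in Bd21 and 72.1% of those in Bd21-3, and 84.9% and 71.9% of the fallers, so that the overlap of the members was near that of all genes.

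Many members were too low to be called. A group mean of 15 CPM was reached by 54 members (47.0%), against 60.7% of all genes, and the 61 others could not be DEGs at any ZT. The median log2FC of the members tested was below 0 at every ZT, from -0.69 in Bd21-3 at ZT20 to -0.18 in Bd21 at ZT8, while that of all genes ran from -0.12 to 0.02. Among the 76 pairs of gene and ZT called in either ecotype, the log2FC had the same sign in both ecotypes in 76. These pairs were picked for a large log2FC in at least 1 ecotype, which favours a shared sign. The share of same signs over all called genes was not counted.

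**Figure D1:**
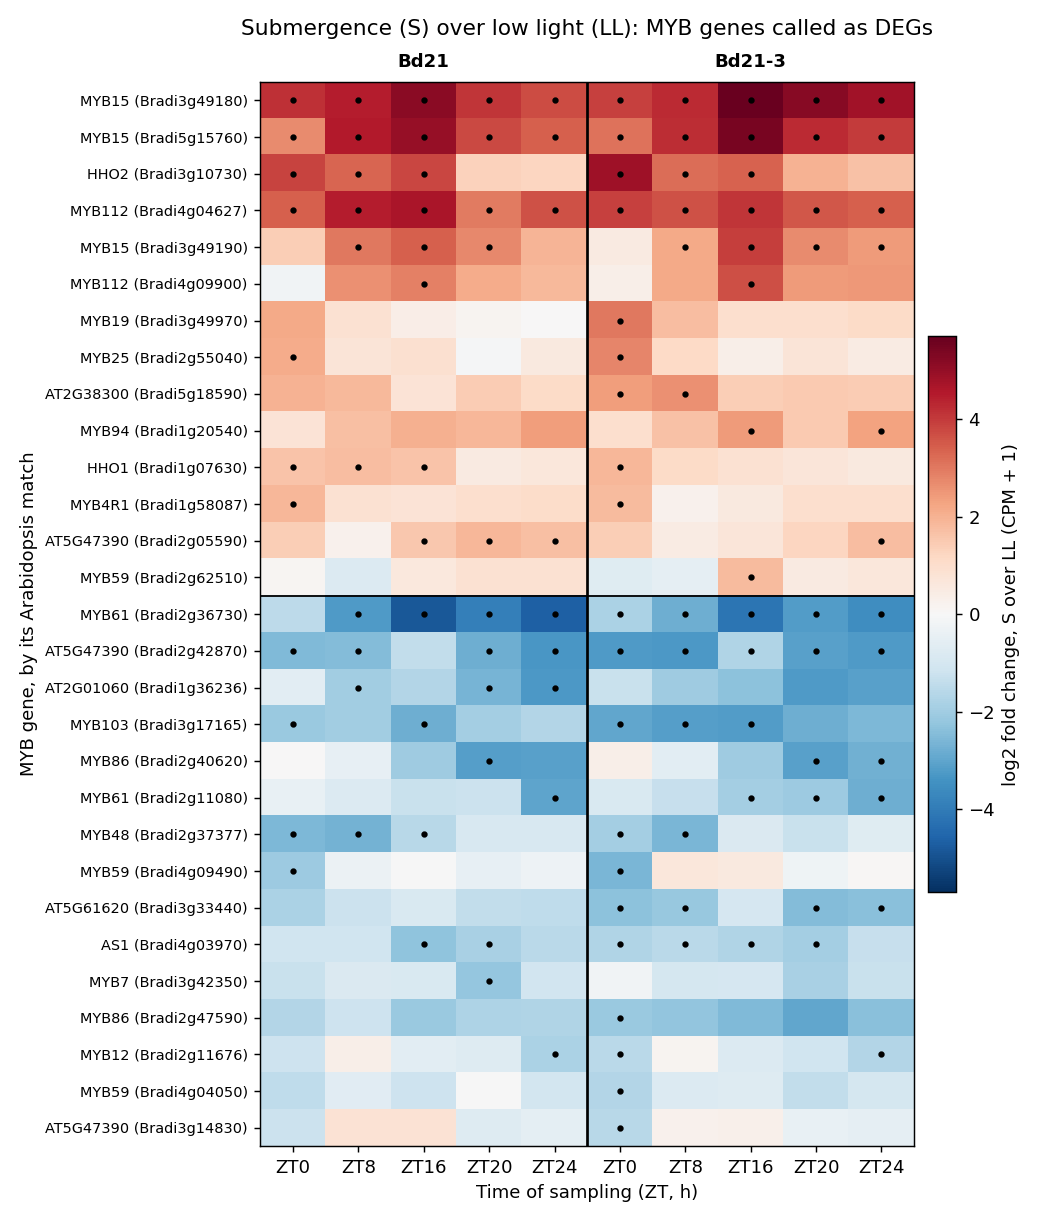
Log2 fold change of S over LL on log2(CPM + 1) for the 29 MYB genes called at 1 or more ZT, by ZT in Bd21 (left) and Bd21-3 (right). Colour gives the log2FC and a dot marks a DEG. Both MYB15 genes at the top and MYB112 (Bradi4g04627) carry a dot at all 5 ZTs in both ecotypes, and MYB61 (Bradi2g36730) has the deepest fall, -4.81 in Bd21 at ZT16.

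The 2 steepest rises were those of genes matched to MYB15, which in Arabidopsis dampens part of the cold response and turns on lignin genes in defence. Of the 4 members of its subgroup, 3 rose in each ecotype, beside 7.03% of all genes in Bd21 and 7.5% in Bd21-3. The remaining one, matched to MYB14 (Bradi3g28830), stayed under 2 CPM in every group. MYB15 (Bradi3g49180) was all but silent in air. At ZT16 it had 27.5, 41.1 and 55.6 CPM in S, against 0.193, 0.248 and 0.0743 CPM in LL, in Bd21. In Bd21-3 the gene had 61.5, 73.8 and 53.1 CPM in S, against 0.296, 0.141 and 0.462 CPM in LL. The S libraries lay far above those of LL in both ecotypes, with log2FC of 5.12 (standard error, SE, 0.33, limma adjusted p = 1.9e-21) and 5.61 (SE 0.33, limma adjusted p = 1.4e-23). It was up-regulated at every ZT, with log2FC of 3.71 to 5.12 in Bd21 and 3.89 to 5.61 in Bd21-3.

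MYB15 (Bradi5g15760), a second copy, had a clear level in LL and rose from there at every ZT. At ZT20 it had 753, 354 and 558 CPM in S, against 40.0, 32.2 and 41.8 CPM in LL, in Bd21, a log2FC of 3.78. In Bd21-3 it had 1294, 802 and 502 CPM in S, against 29.3, 52.4 and 47.3 CPM in LL, a log2FC of 4.24 (SE 0.34 in both, limma adjusted p = 5.4e-15 and 3.6e-17). The groups did not overlap, although replicates 2 and 3 of S in Bd21-3 lay well below replicate 1. Its log2FC was lowest at ZT0 (2.70 in Bd21 and 3.10 in Bd21-3) and highest at ZT16 (4.96 and 5.39).

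MYB15 (Bradi3g49190), whose locus number is next to that of Bradi3g49180, rose later. At ZT0 its log2FC was 1.41 in Bd21 and 0.52 in Bd21-3, and neither was a DEG. At ZT16 it had 25.6, 30.9 and 40.9 CPM in S, against 2.61, 3.73 and 0.743 CPM in LL, in Bd21, and 41.9, 56.3 and 38.7 CPM in S, against 0.985, 3.38 and 2.08 CPM in LL, in Bd21-3. The groups were well apart, with log2FC of 3.41 and 3.94 (SE 0.34 in both, limma adjusted p = 3.2e-13 and 9.6e-16). In Bd21-3 its call at ZT8 (log2FC 2.16) was lost without replicate 1 of LL or replicate 2 or 3 of S, with values of 1.89 to 2.10. Reads of such close copies may be shared between them, and how the counting treated them is not given in the sources used here.

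MYB112 promotes anthocyanin formation under salt and high light in Arabidopsis. Of the genes with this match, 2 rose in each ecotype, beside 7.03% of all genes in Bd21 and 7.5% in Bd21-3. Both started from a level near that of a few reads. The others, Bradi1g64140 and Bradi2g11430, had group means of at most 10.2 and 0.809 CPM and were not DEGs. MYB112 (Bradi4g04627) had 31.6, 41.2 and 45.7 CPM in S, against 0.677, 0.331 and 0.817 CPM in LL, in Bd21 at ZT16. The Bd21-3 libraries had 22.8, 25.0 and 20.3 CPM in S, against 0.296, 0.423 and 0.462 CPM in LL. No LL library of either ecotype came near those of S, and the log2FC were 4.65 and 4.08 (SE 0.35 in both, limma adjusted p = 2.4e-18 and 3.6e-16). It was called at all 5 ZTs, with log2FC of 2.95 to 4.65 in Bd21 and 3.40 to 4.08 in Bd21-3. At ZT0 the call was lost without replicate 1 or 2 of S in Bd21 (log2FC 3.33 and 3.30) and without replicate 2 of S in Bd21-3 (3.77), and at ZT8 without replicate 3 of S in Bd21-3 (3.35).

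MYB112 (Bradi4g09900) was a DEG at ZT16 only. In Bd21-3 the gene had 28.7, 36.6 and 23.4 CPM in S, against 0.690, 0.986 and 2.77 CPM in LL, a log2FC of 3.69 (SE 0.45, limma adjusted p = 1.1e-10). The Bd21 libraries had 16.5, 16.8 and 17.2 CPM in S, against 1.06, 6.05 and 0 CPM in LL, a log2FC of 2.87 (SE 0.45, limma adjusted p = 1.2e-07). The value of 0 is that of the LL library that stood apart, and without it the log2FC was 2.23 and the call was lost, as it was by edgeR (2.89). At ZT0 its S and LL libraries overlapped in both ecotypes, with log2FC of -0.19 and 0.35. The other 7 members of the stress and senescence group, among them MYB44 (Bradi4g08220), were not DEGs in S over LL. The summed level of 8 senescence markers had a median of 555 CPM (150 to 724) in S, against 318 CPM (240 to 537) in LL, in Bd21, and of 467 CPM (217 to 647) in S, against 433 CPM (326 to 571) in LL, in Bd21-3. These ranges overlapped. Single markers went both ways: of the 8, 1 rose and 2 fell in Bd21, beside 7.03% and 8.42% of all genes. In Bd21-3, 1 rose and 3 fell, beside 7.5% and 9.95%. The median log2FC of the markers was -0.31 in Bd21 and -0.64 in Bd21-3. The part of the markers in the rise of this group was not tested.

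**Figure D2:**
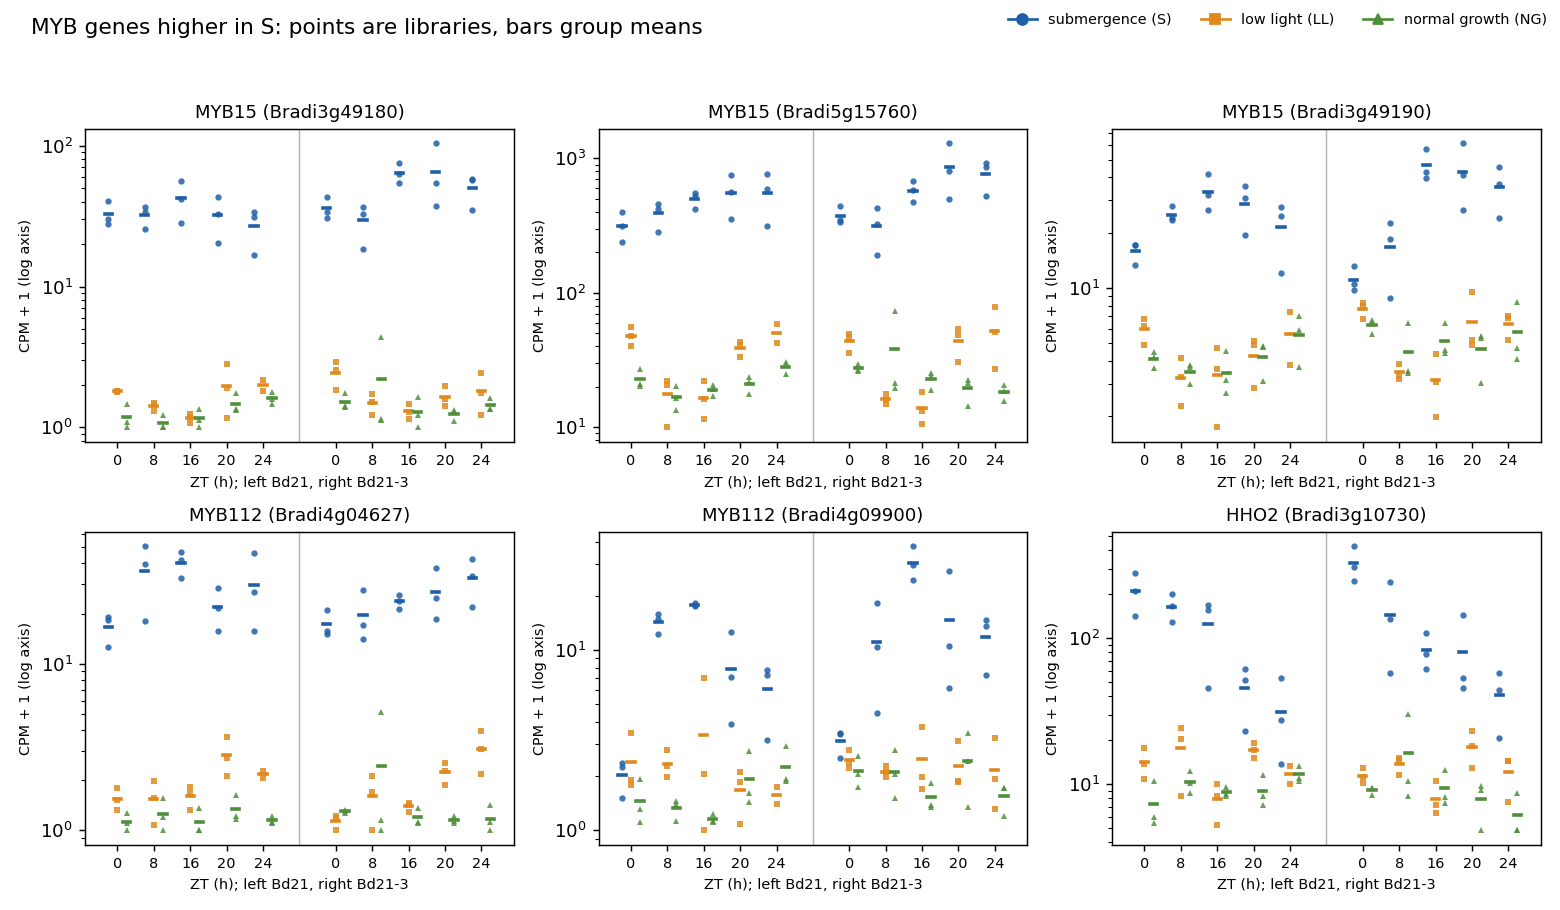
Level (CPM + 1, log axis) by ZT in h of 6 MYB genes up-regulated by S, with Bd21 on the left and Bd21-3 on the right of each panel. Points are libraries and bars group means, for S, LL and NG. The S libraries of MYB15 (Bradi3g49180 and Bradi5g15760) and MYB112 (Bradi4g04627) lay above all LL and NG libraries at every ZT, while HHO2 (Bradi3g10730) was highest at ZT0 and lower at each later ZT.

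Lignin genes are known targets of MYB15 and of the wall factors below, so the enzymes of this pathway were counted from a fixed list of 49 genes. Of the 48 tested, 10 rose and 5 fell at 1 or more ZT in Bd21, beside 7.03% and 8.42% of all genes, and 18 rose and 8 fell in Bd21-3, beside 7.5% and 9.95%. The largest number of risen enzymes was at ZT16 in Bd21-3, 18, against 7 in Bd21, a difference that was not tested. A gene for cinnamate hydroxylase (Bradi3g43160), an early step of the pathway, rose at every ZT with log2FC of 6.63 to 7.76 in Bd21 and 6.90 to 8.95 in Bd21-3. CYP98A3 (Bradi2g21300), a later hydroxylase of the same route, rose with log2FC of 2.69 to 5.16 and 3.25 to 5.25, and a gene matched to cinnamoyl-CoA reductase (Bradi3g54950) with 5.69 to 8.51 and 6.51 to 9.66. The median log2FC of the list ran from -0.43 (ZT0) to 0.90 (ZT16) in Bd21 and from -0.49 (ZT0) to 1.24 (ZT16) in Bd21-3.

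The members matched to activators of secondary walls and lignin numbered 19. None of them rose by limma or by edgeR (4 had an unadjusted limma p under 0.05 upward at some ZT), while 4 fell in Bd21, beside 8.42% of all genes, and 5 in Bd21-3, beside 9.95%. All 19 had an unadjusted p under 0.05 downward at 1 or more ZT in 1 or both ecotypes. The share of all genes at this limit was not counted. At an adjusted p under 0.05 alone, 50.7% of all genes fell at 1 or more ZT in each ecotype. Their median log2FC over the ZTs was -0.88 in Bd21 and -1.23 in Bd21-3. Only 7 of the 19 reached 15 CPM in any group, and 5 of these 7 were DEGs.

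MYB61, which in Arabidopsis acts on xylem, stomatal closure and the supply of carbon to walls, was matched by 2 genes that both fell. MYB61 (Bradi2g36730) had 2.53, 0.841 and 2.62 CPM in S, against 86.7, 74.7 and 77.7 CPM in LL, in Bd21 at ZT16. In Bd21-3 it had 2.05, 3.91 and 6.09 CPM in S, against 98.2, 82.7 and 75.6 CPM in LL. Every S library lay far below every LL library, with log2FC of -4.81 and -4.18 (SE 0.22 in both, limma adjusted p = 2.6e-28 and 9.2e-26). The fall was smaller at ZT0, -1.48 in Bd21, which was not a DEG, and -1.79 in Bd21-3. From ZT8 on it was a DEG at every ZT in both ecotypes.

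MYB61 (Bradi2g11080) fell later. At ZT0 its log2FC was -0.43 in Bd21 and -0.88 in Bd21-3. At ZT24 it had 2.46, 4.54 and 2.41 CPM in S, against 30.0 and 31.8 CPM in LL, in Bd21, and 3.33, 5.07 and 3.36 CPM in S, against 29.2, 34.0 and 33.3 CPM in LL, in Bd21-3. All S libraries were low and none overlapped LL, with log2FC of -2.99 (SE 0.24, limma adjusted p = 7.6e-17) and -2.77 (SE 0.22, limma adjusted p = 1.1e-17). In Bd21-3 it was already a DEG at ZT16 (-1.96) and ZT20 (-2.09).

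MYB103 (Bradi3g17165), which in Arabidopsis is needed for syringyl lignin, had 1.95, 1.80 and 1.89 CPM in S, against 24.6, 25.0 and 10.5 CPM in LL, in Bd21 at ZT16. The Bd21-3 libraries had 2.05, 1.96 and 2.29 CPM in S, against 18.2, 26.8 and 41.0 CPM in LL. The S libraries were close to each other and all lay below LL, with log2FC of -2.77 and -3.19 (SE 0.27 in both, limma adjusted p = 8.3e-14 and 2.9e-16). The third LL value of Bd21 is that of the library that stood apart, and the call held without it. It was also a DEG at ZT0 in both ecotypes (-2.12 and -2.97) and at ZT8 in Bd21-3 (-3.13). At ZT20 and ZT24 LL itself was under 15 CPM in both ecotypes, so these ZTs could not give a call.

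Of the genes matched to MYB86, a relative of MYB61, 2 fell in 1 or both ecotypes. The shares of all genes that fell were 8.42% in Bd21 and 9.95% in Bd21-3. MYB86 (Bradi2g40620) had overlapping libraries at ZT0, with log2FC of 0.02 in Bd21 and 0.32 in Bd21-3. By ZT20 it had 1.37, 0.595 and 0.912 CPM in S, against 18.1, 13.5 and 16.2 CPM in LL, in Bd21, and 5.88, 0.633 and 1.77 CPM in S, against 15.9, 39.6 and 28.2 CPM in LL, in Bd21-3. The groups had then separated, with log2FC of -3.12 and -3.11 (SE 0.40 in both, limma adjusted p = 8.2e-10 and 7.0e-10). In Bd21 the call was lost without replicate 1 of LL (-3.03, with a group mean then under 15 CPM), and in Bd21-3 that at ZT24 (-2.75) without replicate 2 of S (-2.38). MYB86 (Bradi2g47590) was called in Bd21-3 at ZT0, where it had 3.74, 2.47 and 3.52 CPM in S, against 16.1, 19.5 and 16.1 CPM in LL, a log2FC of -2.11 (SE 0.26, limma adjusted p = 3.4e-10). In Bd21 at ZT0 its log2FC was -1.68, with 2.75, 4.70 and 3.99 CPM in S, against 14.0, 15.0 and 13.6 CPM in LL, whose mean missed 15 CPM.

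Markers of xylem, the tissue these wall factors are known from, were lower in S as well. Of 5 genes (matches of CESA4, CESA7, CESA8 and XCP1, the last with 2 genes), 4 fell at ZT16, ZT20 and ZT24 in both ecotypes. Beside these, 3.93%, 4.39% and 4.16% of all genes fell at the 3 ZTs in Bd21, and 4.67%, 5.54% and 4.71% in Bd21-3. At ZT0, 1 fell in Bd21 and 0 in Bd21-3 by limma or edgeR, where 5 had an unadjusted limma p under 0.05. The shares of all genes that fell at ZT0 were 3.02% in Bd21 and 4.32% in Bd21-3. Their summed level ran from 57.8 to 497 CPM in S, against 435 to 1172 CPM in LL, in Bd21, and from 133 to 531 CPM in S, against 878 to 1455 CPM in LL, in Bd21-3. No marker was at 0 in all libraries of a treatment. The summed level of 9 guard cell markers, 2 of which are MYB60 members, ran from 36.4 to 67.9 CPM in S, against 73.2 to 100 CPM in LL, in Bd21, and from 33.7 to 58.6 CPM in S, against 72.3 to 97.4 CPM in LL, in Bd21-3. The ranges did not overlap. As single genes, 1 of the 9 rose (at ZT8) and 2 fell in Bd21, beside 7.03% and 8.42% of all genes. In Bd21-3, 0 rose by limma or edgeR and 2 fell, beside 7.5% and 9.95%. At an unadjusted limma p under 0.05, all 9 were lower at some ZT in each ecotype, and 1 was higher in Bd21. The part of either list in the fall of the wall MYB genes was not tested.

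**Figure D3:**
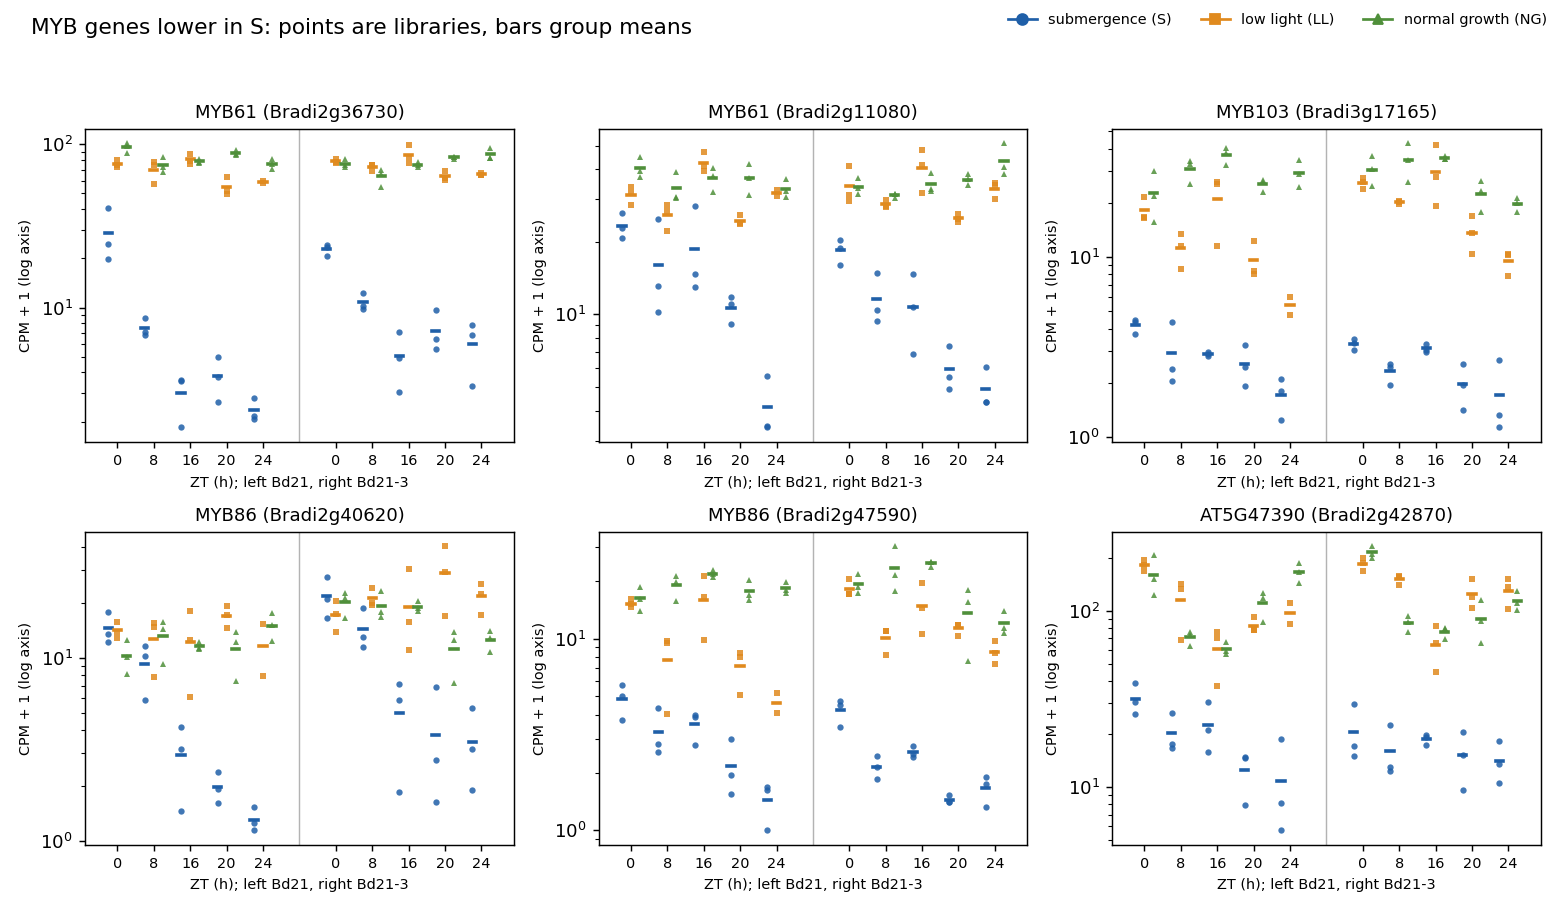
Level (CPM + 1, log axis) by ZT in h of 6 MYB genes down-regulated by S, with Bd21 on the left and Bd21-3 on the right of each panel. Points are libraries and bars group means, for S, LL and NG. MYB86 (Bradi2g40620) had S and LL libraries at one level at ZT0 and log2FC of -3.12 in Bd21 and -3.11 in Bd21-3 at ZT20, while the AT5G47390-type gene (Bradi2g42870) was low in S at all ZTs.

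Members tied to nutrition moved in both directions. HHO1 and HHO2 belong to the NIGT1 repressors, which in Arabidopsis are induced by nitrate and hold back nitrate uptake and phosphate starvation genes. Both members of this kind rose. In a wider list of 5 NIGT1 and HHO genes, 3 rose in Bd21 and 2 in Bd21-3, beside 7.03% and 7.5% of all genes. By limma and by edgeR 0 of the 5 fell. At ZT0 in Bd21, however, 2 of the 5 had an unadjusted limma p under 0.05 downward, and the median log2FC was 0.08. HHO2 (Bradi3g10730) had 210, 280 and 141 CPM in S, against 16.9, 12.8 and 9.92 CPM in LL, in Bd21 at ZT0. In Bd21-3 the gene had 246, 306 and 426 CPM in S, against 11.8, 10.2 and 9.17 CPM in LL. All S libraries lay far above any LL library, with log2FC of 3.87 and 4.81 (SE 0.45 in both, limma adjusted p = 6.5e-11 and 2.2e-14). It was a DEG at ZT0, ZT8 and ZT16 in both ecotypes. At ZT24 it had 26.4, 52.4 and 12.7 CPM in S, against 12.4 and 9.07 CPM in LL, in Bd21, and log2FC of 1.23 in Bd21 and 1.69 in Bd21-3 were not calls.

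HHO1 (Bradi1g07630) already had a high level in LL. At ZT0 it had 286, 306 and 181 CPM in S, against 87.6, 66.4 and 94.8 CPM in LL, in Bd21, and 225, 259 and 284 CPM in S, against 67.6, 72.9 and 60.6 CPM in LL, in Bd21-3. The groups did not overlap, with log2FC of 1.60 and 1.91 (SE 0.27 in both, limma adjusted p = 9.5e-07 and 1.1e-08). In Bd21 it was also called at ZT8 (1.76) and ZT16 (1.63). The 3 calls in Bd21 were close to the limits. They were lost at ZT0 without replicate 1 or 2 of LL or of S (1.45 to 1.65), at ZT8 without replicate 2 of S (1.65) or 1 of LL (1.52), and at ZT16 without replicate 3 of LL or replicate 2 or 3 of S (1.42 to 1.5). Against NG its log2FC was 1.43 at ZT8 and 1.08 at ZT16 in Bd21, and neither was a call.

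Of 4 members related to PHR1, the phosphate starvation activator, 1 was a DEG and fell in Bd21, beside 8.42% of all genes. The AT2G01060-type gene (Bradi1g36236) had 0.137, 0.623 and 1.44 CPM in S, against 16.5 and 13.6 CPM in LL, in Bd21 at ZT24, a log2FC of -3.27 (SE 0.25, limma adjusted p = 3.7e-18). Its levels in Bd21-3 were 1.41, 0.110 and 0.559 CPM in S, against 13.2, 11.8 and 13.1 CPM in LL, a log2FC of -3.09 (SE 0.22, limma adjusted p = 2.2e-19), but with no group at 15 CPM it was not a DEG there. In both ecotypes S lay far below LL. The mean of LL in Bd21 was just over 15 CPM, and the call at ZT24 was lost without replicate 1 of LL (-3.14) and that at ZT20 (-2.64) without replicate 2 of LL (-2.50). The 3 other genes with this match were not DEGs, with group means of 48.5 to 87.5 CPM (Bradi2g21407), 33.2 to 64.3 CPM (Bradi4g27620) and 2.96 to 8.91 CPM (Bradi3g22290).

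MYB48 and MYB59 are close relatives, and MYB59 acts in Arabidopsis on potassium and nitrate transport and root growth. Of the 5 members with these matches, 3 fell at 1 or more ZT in Bd21-3, 2 of them also in Bd21, and 1 rose in Bd21-3. Over all genes 9.95% fell and 7.5% rose in Bd21-3, and 8.42% fell in Bd21. MYB48 (Bradi2g37377) had 27.1, 27.5 and 26.3 CPM in S, against 153, 240 and 161 CPM in LL, in Bd21 at ZT8. The Bd21-3 libraries had 23.6, 25.7 and 45.1 CPM in S, against 199, 160 and 207 CPM in LL. All S libraries were low, with log2FC of -2.70 and -2.60 (SE 0.26 in both, limma adjusted p = 8.0e-14 and 2.5e-13). Here LL was above NG (153, 240 and 161 CPM in LL, against 53.5, 54.0 and 56.7 CPM in NG, in Bd21), and S over NG gave only -0.99 and -0.73, which were not calls. At ZT16 in Bd21 its call (-1.59) was lost without replicate 2 of S (-1.43) or replicate 1 of LL (-1.36), and S over NG was -0.08. At ZT0 S over LL was -2.57 in Bd21 and -1.92 in Bd21-3, and both remained calls with NG as the control (-1.84 and -1.62).

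MYB59 (Bradi4g09490) was low in S at the first dawn alone. At ZT0 it had 6.32, 5.69 and 6.96 CPM in S, against 31.4, 36.0 and 23.0 CPM in LL, in Bd21, and 7.06, 5.97 and 4.98 CPM in S, against 42.4, 41.2 and 40.0 CPM in LL, in Bd21-3. S was far below LL, with log2FC of -2.07 and -2.60 (SE 0.17 in both, limma adjusted p = 8.7e-17 and 2.1e-21). At the second dawn, ZT24, it had 34.8, 31.3 and 25.3 CPM in S, against 34.1 and 39.7 CPM in LL, in Bd21, and 54.6, 55.0 and 51.3 CPM in S, against 52.1, 48.8 and 52.0 CPM in LL, in Bd21-3. The groups then overlapped, with log2FC of -0.28 and 0.07. MYB59 (Bradi4g04050) also fell at ZT0 in Bd21-3, to 20.1, 20.8 and 24.0 CPM in S, against 66.6, 70.9 and 76.1 CPM in LL (log2FC -1.68, SE 0.16, limma adjusted p = 5.9e-14), while its -1.44 in Bd21 stayed short of the limit.

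MYB59 (Bradi2g62510) drew the most reads of all members, with a mean of 250 CPM over all libraries, ahead of MYB15 (Bradi5g15760) with 194 and HHO1 (Bradi1g07630) with 109. At ZT16 in Bd21-3 it had 546, 481 and 486 CPM in S, against 96.8, 174 and 180 CPM in LL, a log2FC of 1.79 (SE 0.22, limma adjusted p = 1.1e-10). The same gene in Bd21 had 312, 232 and 274 CPM in S, against 221, 155 and 161 CPM in LL, a log2FC of 0.61 that was not a call. S lay above LL in both ecotypes at ZT16. The log2FC at this ZT was larger in Bd21-3 by 1.18 (SE 0.31, adjusted p = 0.0056 by limma for the interaction), which missed the DEG limits. Earlier in the day the direction was the opposite, without a call. At ZT8 it had 165, 149 and 160 CPM in S, against 278, 309 and 244 CPM in LL, in Bd21. The Bd21-3 libraries then had 209, 225 and 294 CPM in S, against 330, 352 and 351 CPM in LL. At ZT0 Bd21-3 had 246, 222 and 355 CPM in S, against 351, 520 and 428 CPM in LL.

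Members matched to regulators of the plant surface were mostly low. Of 19 tied to cuticle, wax and suberin, 2 reached 15 CPM, and 1 was a DEG that rose in Bd21-3, beside 7.5% of all genes. MYB94 (Bradi1g20540), an activator of wax synthesis in Arabidopsis, had 18.7, 28.5 and 22.7 CPM in S, against 1.38, 3.38 and 7.15 CPM in LL, in Bd21-3 at ZT16, a log2FC of 2.44 (SE 0.40, limma adjusted p = 4.6e-07). The Bd21 libraries had 17.1, 14.1 and 8.44 CPM in S, against 4.25, 5.38 and 0.149 CPM in LL, a log2FC of 2.02 that was not a call. S was above LL throughout. The 2 calls in Bd21-3 were fragile: that at ZT16 was lost without replicate 1 or 2 of LL or 2 or 3 of S (2.00 to 2.45), and that at ZT24 (2.30) without any of 5 libraries, all but replicate 2 of S (2.01 to 2.44). MYB96 (Bradi1g61160), its partner in wax synthesis, had 21.5, 28.8 and 27.6 CPM in S, against 2.46, 5.92 and 7.62 CPM in LL, in the same group of Bd21-3, a log2FC of 2.18 that narrowly missed (limma adjusted p = 6.8e-06). Of 39 genes for wax, cutin and suberin enzymes, 1 rose and 13 fell in Bd21, beside 7.03% and 8.42% of all genes, and 2 rose and 11 fell in Bd21-3, beside 7.5% and 9.95%. CER4 (Bradi3g42780), which makes the primary alcohols of wax, fell from ZT8 on with log2FC of -1.80 to -4.07 in Bd21 and -2.35 to -4.18 in Bd21-3.

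Of 4 members matched to activators of flavonoid and anthocyanin synthesis, 1 was a DEG. It fell in both ecotypes, beside 8.42% of all genes in Bd21 and 9.95% in Bd21-3. MYB12 (Bradi2g11676), an activator of flavonol synthesis, had 5.19, 6.59 and 2.53 CPM in S, against 19.5 and 17.4 CPM in LL, in Bd21 at ZT24, and 4.62, 3.09 and 12.5 CPM in S, against 23.7, 21.9 and 17.1 CPM in LL, in Bd21-3. S was below LL in all libraries, with log2FC of -1.82 and -1.68 (SE 0.28 and 0.25, limma adjusted p = 9.4e-08 and 3.4e-08). Neither call was firm, since that in Bd21 was lost without replicate 1 or 2 of LL or 3 of S (-1.90 to -1.5), and that in Bd21-3 without replicate 2 of S (-1.32). The call at ZT0 in Bd21-3 (-1.54) was lost without replicate 1 of LL or 1 or 2 of S (-1.48 to -1.34), under median of ratios scaling (-1.49) and by edgeR (-1.48). MYB7 (Bradi3g42350), related to the phenylpropanoid repressor MYB4, had 17.1, 12.2 and 17.5 CPM in S, against 94.5, 66.2 and 69.4 CPM in LL, in Bd21 at ZT20. This log2FC of -2.22 (SE 0.39, limma adjusted p = 2.0e-06) lost its call without any 1 of these 6 libraries (-2.32 to -2.06) and with NG as the control (-1.77). The 3 genes matched to MYB4 were not DEGs. Of 16 flavonoid enzyme genes, 1 rose and 4 fell in Bd21, beside 7.03% and 8.42% of all genes, and 0 rose and 7 fell in Bd21-3 by limma, beside 7.5% and 9.95%. By edgeR 0 rose there as well, and 4 had an unadjusted limma p under 0.05 upward at some ZT.

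Members with roles in leaf form and cell division numbered 8. AS1 (Bradi4g03970), which sets leaf polarity and keeps meristem genes off in leaves, was the only DEG among them and fell in both ecotypes, where 8.42% (Bd21) and 9.95% (Bd21-3) of all genes fell. At ZT16 it had 5.86, 6.97 and 6.11 CPM in S, against 40.9, 49.1 and 20.1 CPM in LL, in Bd21, a log2FC of -2.28 (SE 0.28, limma adjusted p = 2.7e-10). In Bd21-3 the gene had 4.29, 6.69 and 4.99 CPM in S, against 14.5, 15.9 and 32.3 CPM in LL, a log2FC of -1.72 (SE 0.28, limma adjusted p = 4.2e-07). The groups did not overlap at any ZT in either ecotype. The calls in Bd21-3 were near the limits: that at ZT16 was lost without replicate 3 of LL or 1 or 3 of S (-1.69 to -1.37), that at ZT0 (-1.73) without replicate 2 of LL or 1 or 2 of S (-1.64 to -1.61), that at ZT20 (-1.95) without replicate 2 of LL (-1.77), and that at ZT8 (-1.54) without any of 28 libraries. In Bd21 that at ZT20 (-1.83) was lost without replicate 3 of LL or of S (-1.73 and -1.65).

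None of the 6 genes matched to MYB3R4 or MYB3R5, the factors that time genes of the G2/M phase, was a DEG. MYB3R5 (Bradi2g23310) had 25.8, 29.3 and 38.4 CPM in S, against 16.4, 18.2 and 19.1 CPM in LL, in Bd21 at ZT0, and 29.2, 27.8 and 28.2 CPM in S, against 17.5, 12.8 and 18.7 CPM in LL, in Bd21-3. The libraries did not overlap, and the log2FC of 0.75 and 0.78 were under the limit. Among 20 genes of the G2/M phase, 6 fell in each ecotype, beside 8.42% of all genes in Bd21 and 9.95% in Bd21-3, and 0 rose by limma or by edgeR, beside 7.03% and 7.5%, while 4 in each ecotype had an unadjusted limma p under 0.05 upward at some ZT. Their median log2FC was -0.13 at ZT0 and -1.76 at ZT24 in Bd21, and -0.12 at ZT0 and -1.28 at ZT24 in Bd21-3.

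Among the myb-like genes with a single MYB repeat, copies of 1 Arabidopsis gene parted. AT5G47390, which promotes the expansion of leaf cells, was matched by 4 genes, of which 2 fell, 1 rose and 1 (Bradi3g33400) was not a DEG. The gene Bradi2g42870 had 7.18, 17.8 and 4.69 CPM in S, against 109 and 83.3 CPM in LL, in Bd21 at ZT24. In Bd21-3 it had 12.6, 9.59 and 17.3 CPM in S, against 151, 134 and 101 CPM in LL. S was low in every library of both ecotypes, with log2FC of -3.33 (SE 0.33, limma adjusted p = 1.6e-13) and -3.21 (SE 0.29, limma adjusted p = 6.5e-15). It was a DEG at all 5 ZTs in Bd21-3, where the call at ZT16 (-1.73) was lost without any of 5 libraries, all but replicate 1 of LL (-1.78 to -1.54), and at all but ZT16 in Bd21.

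The gene Bradi2g05590 moved the other way. At ZT24 it had 36.7, 41.5 and 38.8 CPM in S, against 9.80 and 12.4 CPM in LL, in Bd21, and 61.7, 69.4 and 57.8 CPM in S, against 17.3, 18.2 and 17.8 CPM in LL, in Bd21-3. S was above LL in every library, with log2FC of 1.73 (SE 0.19, limma adjusted p = 5.7e-12) and 1.77 (SE 0.17, limma adjusted p = 3.9e-14). In Bd21 it was also called at ZT20 (1.87) and ZT16 (1.52), the last of which was lost without replicate 3 of LL (1.43) or of S (1.38) and under median of ratios scaling (1.47). At ZT8 it had log2FC of 0.25 and 0.48.

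Of 2 further single-repeat genes, 1 rose and 1 fell, both called in Bd21-3 and not in Bd21. The AT2G38300-type gene (Bradi5g18590) had 19.5, 20.4 and 20.2 CPM in S, against 3.07, 2.44 and 1.95 CPM in LL, in Bd21-3 at ZT8, a log2FC of 2.61 (SE 0.25, limma adjusted p = 5.2e-14). The same gene in Bd21 had 12.8, 9.97 and 9.59 CPM in S, against 1.71, 2.37 and 2.86 CPM in LL, a log2FC of 1.84, with neither group at 15 CPM. S was above LL in both ecotypes. The AT5G61620-type gene (Bradi3g33440) had 20.5, 11.6 and 8.97 CPM in S, against 47.6, 114 and 80.2 CPM in LL, in Bd21-3 at ZT20, a log2FC of -2.46 (SE 0.38, limma adjusted p = 1.1e-07). The Bd21 libraries had 41.1, 16.1 and 18.0 CPM in S, against 68.8, 51.2 and 71.6 CPM in LL, a log2FC of -1.42. S was below LL there too, and the call in Bd21-3 was lost without replicate 3 of S (-2.22) or 2 of LL (-2.17). Its 3 other calls in Bd21-3 were each lost without 3 to 5 of their libraries, with values between -2.31 and -1.98.

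Some members responded mainly at the first dawn under water. MYB25 (Bradi2g55040) had 36.4, 39.8 and 31.4 CPM in S, against 6.61, 7.47 and 8.88 CPM in LL, in Bd21 at ZT0. The Bd21-3 libraries had 41.4, 52.3 and 51.0 CPM in S, against 6.60, 6.05 and 5.79 CPM in LL. All S libraries were high, with log2FC of 2.09 and 2.78 (SE 0.18 in both, limma adjusted p = 2.2e-15 and 6.9e-21). At the later ZTs its log2FC ran from -0.07 to 0.91 in Bd21 and from 0.31 to 1.15 in Bd21-3, with no call. MYB4R1 (Bradi1g58087) had 41.5, 43.8 and 47.4 CPM in S, against 10.2, 11.7 and 11.2 CPM in LL, in Bd21 at ZT0, and 44.0, 40.1 and 38.7 CPM in S, against 11.0, 10.9 and 10.9 CPM in LL, in Bd21-3. The groups were tight and far apart, with log2FC of 1.91 and 1.81 (SE 0.15 in both, limma adjusted p = 8.5e-17 and 4.5e-16). It stayed above LL at ZT24, with log2FC of 1.06 and 0.96.

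MYB19 (Bradi3g49970) had 15.9, 17.3 and 35.2 CPM in S, against 2.43, 1.42 and 1.64 CPM in LL, in Bd21-3 at ZT0, a log2FC of 3.00 (SE 0.37, limma adjusted p = 2.7e-10). The same gene in Bd21 had 12.5, 16.9 and 11.2 CPM in S, against 1.98, 2.43 and 2.35 CPM in LL, a log2FC of 2.14 (limma adjusted p = 1.7e-06), with a mean in S under 15 CPM. S was above LL in both ecotypes. By ZT20 its libraries overlapped, with log2FC of 0.14 and 0.96.

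Whether the response to S changed between ZTs was tested by an F test over the 5 log2FC of a gene. It changed for 10 members in Bd21, beside 9.22% of all genes, and for 11 in Bd21-3, beside 9%. With the groups compared fitted alone the counts were 1 in Bd21 and 6 in Bd21-3. At an adjusted p under 0.05, with a range of at least 1.5 and 15 CPM still required, they were 20 and 22. Without these limits 61 and 63 members passed, beside 54.0% and 53.3% of all genes. Both MYB61 genes, MYB86 (Bradi2g40620), MYB25, MYB59 (Bradi4g09490), the AT5G47390-type gene Bradi3g14830 and the DnaJ gene changed in both ecotypes. Bradi3g14830 turned round within the day in Bd21. At ZT0 it had 36.9, 39.3 and 31.3 CPM in S, against 79.5, 86.5 and 89.3 CPM in LL, and at ZT8 50.0, 78.9 and 92.3 CPM in S, against 36.1, 44.4 and 38.9 CPM in LL. The log2FC of -1.23 at ZT0 and 0.83 at ZT8 were not calls, and in Bd21-3 it was -1.57 at ZT0, a call lost without replicate 2 of S (-1.45), and 0.25 at ZT8. The DnaJ gene (Bradi5g07300) was lower in S at ZT0, with 30.2, 28.7 and 27.2 CPM in S, against 42.3, 48.7 and 38.9 CPM in LL, in Bd21. At ZT20 it was higher, with 94.2, 116 and 122 CPM in S, against 48.4, 57.4 and 53.3 CPM in LL. Its log2FC was -0.57 at ZT0 and 1.04 at ZT20 in Bd21, and -0.56 and 1.28 in Bd21-3.

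**Figure D4:**
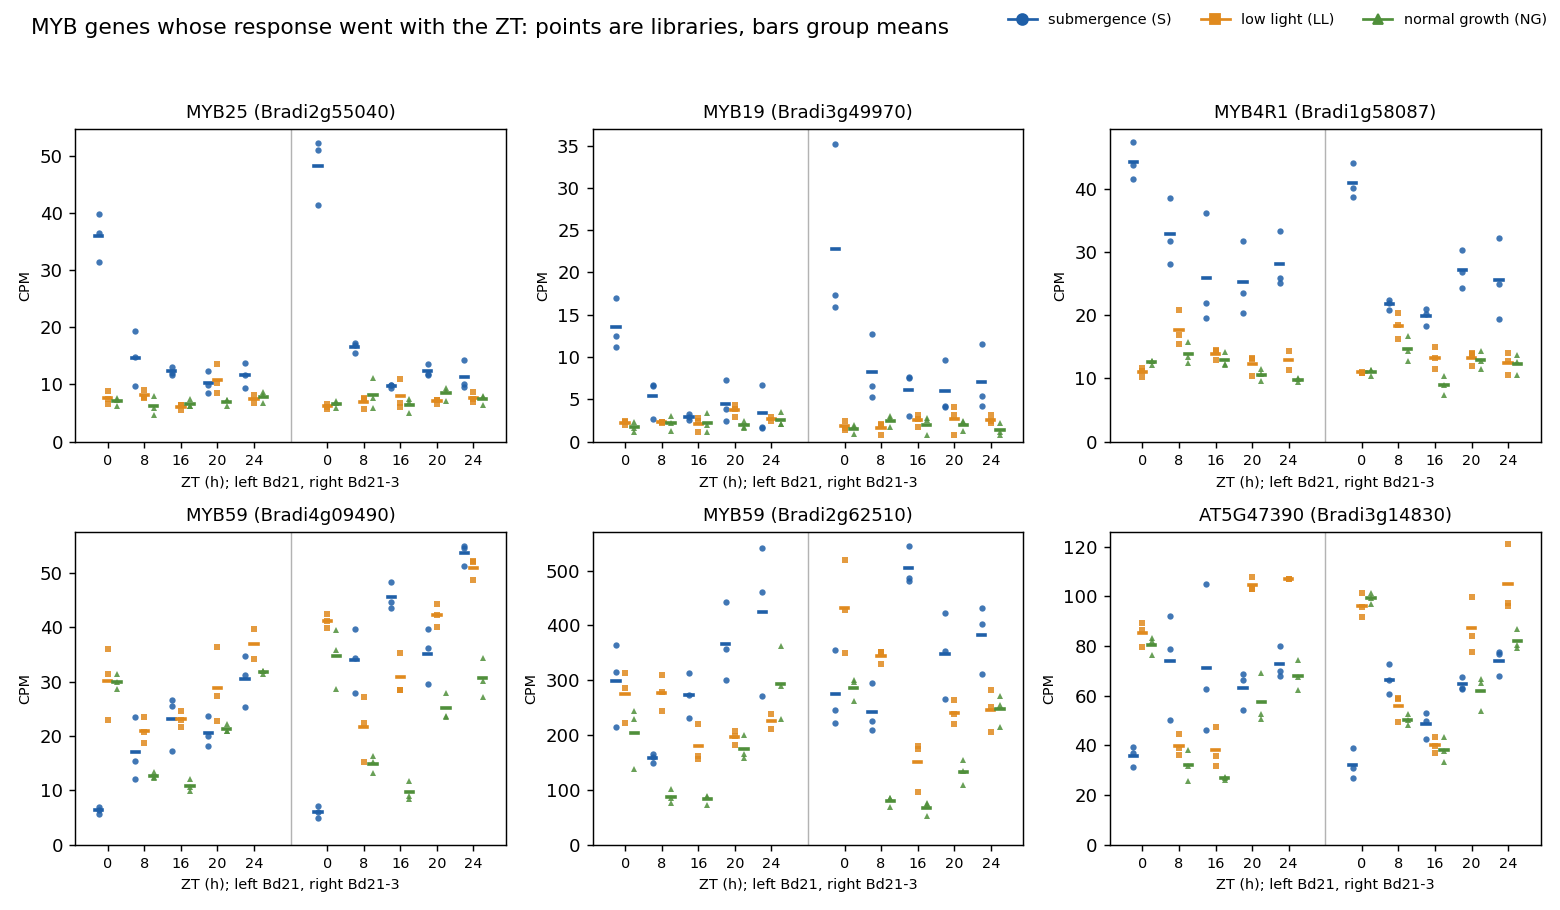
Level (CPM, linear axis) by ZT in h of 6 MYB genes, shown for their difference between S and LL over the ZTs, with Bd21 on the left and Bd21-3 on the right of each panel. By the F test the response of MYB19 changed in neither ecotype, and that of MYB4R1 and MYB59 (Bradi2g62510) in Bd21-3 only. Points are libraries and bars group means, for S, LL and NG. MYB25, MYB19 and MYB4R1 stood high in S at ZT0, and MYB59 (Bradi4g09490) was low in S at ZT0 and overlapped LL at ZT24.

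Levels were also tested for a change between ZTs within each treatment. They changed between ZTs for 13 members in S, beside 11.2% of all genes, for 1 in LL, beside 2.41%, and for 3 in NG, beside 1.72%, in Bd21. In Bd21-3 this held for 14 members in S, beside 10.1%, for 3 in LL, beside 2.52%, and for 5 in NG, beside 1.85%. The shares of members in S, 11.4% in Bd21 and 12.3% in Bd21-3, were near those of all genes, and the counts were not compared by a test. With the groups compared fitted alone, the counts were 0 in S, 0 in LL and 1 in NG in Bd21, and 4, 0 and 3 in Bd21-3. Without replicate 3 of LL at ZT16, the count in LL of Bd21 was 4. The gene of LL in Bd21, MYB103, also changed in LL of Bd21-3. In NG, MYB59 (Bradi2g62510) changed in both ecotypes. It had 363, 289 and 230 CPM at ZT24 and 76.2, 101 and 84.6 CPM at ZT8 in Bd21, and 272, 215 and 254 CPM at ZT24 and 68.8, 85.7 and 86.0 CPM at ZT8 in Bd21-3, so that its night-end level was the higher one.

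Reduced light without water raised 4 members and lowered 4 at 1 or more ZT. In LL over NG, 3 rose in Bd21, beside 1.12% of all genes, and 4 fell, beside 1.31%. In Bd21-3, 4 rose, beside 1.12%, and 1 fell, beside 1.58%. The LL libraries also serve as the controls of S over LL, so the values of both comparisons are tied.

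The genes that rose in LL were MYB7, MYB48 and 2 copies of MYB59. MYB7 (Bradi3g42350) had 28.5, 52.3 and 50.9 CPM in LL, against 8.37, 4.67 and 9.89 CPM in NG, in Bd21 at ZT8. In Bd21-3 the gene had 48.3, 40.4 and 49.4 CPM in LL, against 7.01, 6.55 and 9.15 CPM in NG. All LL libraries lay above NG, with log2FC of 2.38 and 2.46 (SE 0.39 in both, limma adjusted p = 1.5e-06 and 1.1e-06). The call was lost in Bd21 without replicate 2 or 3 of LL or 1 or 2 of NG (2.10 to 2.46), and in Bd21-3 without any library but replicate 3 of NG (2.38 to 2.55).

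MYB48 (Bradi2g37377), given for Bd21 above, had 199, 160 and 207 CPM in LL, against 47.1, 55.6 and 49.6 CPM in NG, in Bd21-3 at ZT8. The log2FC were 1.71 in Bd21 (SE 0.26, limma adjusted p = 3.1e-07) and 1.87 in Bd21-3 (SE 0.26, limma adjusted p = 6.7e-08), with no overlap. In Bd21 the call was lost without replicate 2 of LL or 1 or 2 of NG (1.5 to 1.70). In Bd21-3 it was also called at ZT16 (1.61), where it was lost without any library but replicate 1 of LL (1.40 to 1.70), and at ZT20 (1.72), where it was lost without replicate 2 or 3 of LL or 2 of NG (1.39 to 1.73).

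MYB59 (Bradi2g62510) had 278, 309 and 244 CPM in LL, against 76.2, 101 and 84.6 CPM in NG, in Bd21 at ZT8, and 330, 352 and 351 CPM in LL, against 68.8, 85.7 and 86.0 CPM in NG, in Bd21-3. LL stood well above NG, with log2FC of 1.66 and 2.10 (SE 0.22 in both, limma adjusted p = 6.3e-09 and 1.2e-11). MYB59 (Bradi4g09490) had 28.5, 35.4 and 28.5 CPM in LL, against 11.6, 8.98 and 8.35 CPM in NG, in Bd21-3 at ZT16, a log2FC of 1.58 (SE 0.17, limma adjusted p = 2.8e-11) that was lost without replicate 2 of LL (1.48) or 3 of NG (1.49). Its log2FC in Bd21 was 1.02.

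MYB12 (Bradi1g64687), a flavonol activator, fell in LL. At ZT16 it had 3.65, 3.94 and 5.54 CPM in LL, against 17.8, 23.6 and 21 CPM in NG, in Bd21-3, a log2FC of -2.03 (SE 0.24, limma adjusted p = 7.8e-10). The Bd21 libraries had 5.03, 7.21 and 2.60 CPM in LL, against 14.1, 15.8 and 16.7 CPM in NG, a log2FC of -1.55 (SE 0.24, limma adjusted p = 1.3e-06). LL was below NG in all libraries, and the call in Bd21 was lost without any library but replicate 2 of LL (-1.62 to -1.23). The other 3 falls were all in Bd21 at ZT24, where LL has 2 libraries. MYB103 had 5.01 and 3.77 CPM in LL, against 27.8, 33.3 and 23.4 CPM in NG, a log2FC of -2.43 that was lost without replicate 2 of LL (-2.27). MYB86 (Bradi2g47590) had a log2FC of -1.99, lost without replicate 1 (-1.82) or 2 (-2.16) of LL, and AS1 one of -1.82, lost without any of 62 libraries. In Bd21-3 at ZT24 these 3 had log2FC of -1.06, -0.50 and -0.98, with no call, and the differences between the ecotypes in LL over NG were not tested.

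**Figure D5:**
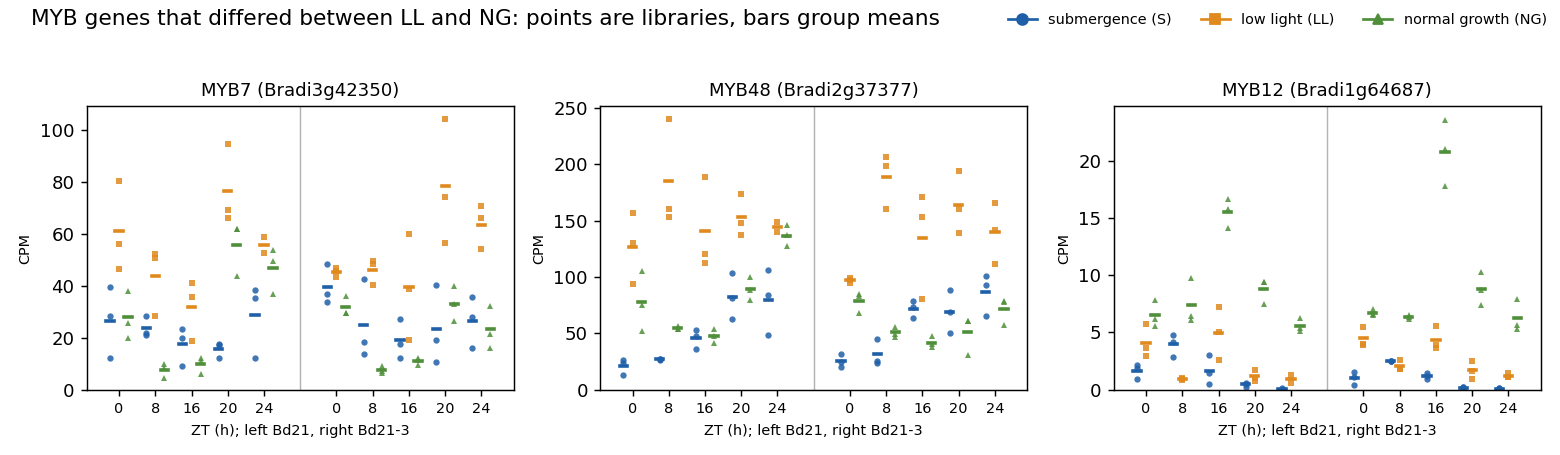
Level (CPM, linear axis) by ZT in h of MYB7, MYB48 and MYB12 (Bradi1g64687), with Bd21 on the left and Bd21-3 on the right of each panel. Points are libraries and bars group means, for S, LL and NG. At ZT8 MYB7 and MYB48 had LL libraries above all NG libraries, and at ZT16 MYB12 had NG libraries above all LL libraries.

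No MYB gene passed the DEG limits between the ecotypes, in any of the treatments or in its response. In S, 0 members were higher and 0 lower in Bd21 than in Bd21-3 by limma, beside 1.33% and 0.668% of all genes, and edgeR also called 0 and 0. At an unadjusted p under 0.05, 42 members were higher and 36 lower at 1 or more ZT. In LL both tools called 0 higher, beside 0.722% of all genes by limma, and 0 lower, beside 0.282%, with 16 higher and 34 lower at an unadjusted p under 0.05. In NG both called 0 higher, beside 0.63%, and 0 lower, beside 0.249%, with 35 higher and 22 lower at an unadjusted p under 0.05. The response itself, S over LL in Bd21-3 less that in Bd21, differed for 0 members upward and 0 downward by limma and by edgeR, beside 0.195% and 0.444% of all genes, and 28 and 53 members had an unadjusted p under 0.05.

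At an adjusted p under 0.05, looser than the DEG limit, some members differed. MYB96 (Bradi1g61160) had 11.4, 6.01 and 8.29 CPM in Bd21 and 21.5, 28.8 and 27.6 CPM in Bd21-3 in S at ZT16. The libraries did not overlap, and the log2FC of Bd21 over Bd21-3 was -1.52 (SE 0.41, limma adjusted p = 0.0029). MYB59 (Bradi4g04050) differed in its response at ZT20, where it had 32.9, 40.5 and 27.6 CPM in S, against 37.1, 33.6 and 29.6 CPM in LL, in Bd21. In Bd21-3 it had 15.6, 19.8 and 17.8 CPM in S, against 58.9, 45.8 and 41.3 CPM in LL. S overlapped LL in Bd21 and lay below it in Bd21-3, a difference of -1.40 between the log2FC (SE 0.23, limma adjusted p = 2.8e-05 for the interaction). MYB86 (Bradi1g20250) had log2FC of -0.45 in Bd21 and -2.48 in Bd21-3 at ZT8, a difference of -2.03 (SE 0.67, limma adjusted p = 0.039 for the interaction).

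The remaining 86 members were never DEGs in S over LL, and 25 of them reached 15 CPM in a group. SWC4 (Bradi2g18250), a subunit of a chromatin remodelling complex, kept group means of 41.5 to 61.4 CPM across all treatments and times. MYB88 (Bradi1g20586), which acts on the last division of the stomatal lineage, ranged from 13.4 to 42.4 CPM. Of 3 members matched to gibberellin-related MYB33 and its kin, 0 were called by limma or edgeR, while 2 had an unadjusted limma p under 0.05 upward and 2 downward. MYB33 (Bradi2g53010) had 4.71, 3.70 and 4.86 CPM in S, against 11.0, 10.8 and 11.3 CPM in LL, in Bd21-3 at ZT0, and 22.4, 23.1 and 21.6 CPM in S, against 11.1, 12.9 and 11.5 CPM in LL, at ZT24. S was thus below LL at ZT0 and above it at ZT24, with log2FC of -1.16 and 0.87. Of 5 members matched to regulators of axillary meristems and the endodermis, 0 were called by limma or edgeR, and at an unadjusted limma p under 0.05 there were 2 upward and 5 downward at some ZT. Shares over all genes at this unadjusted limit were not counted.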

How the data were processed

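Reads of 89 libraries had been aligned by the authors to the Bd21 genome, JGI assembly v3.0, with HISAT2 (2.1.0), and libraries under 90% alignment discarded; they were merged per library with SAMtools (1.12) and counted with HTSeq; whether strand was used is not given in the sources used here. The deposited values are a normalized signal, CPM that the authors computed with edgeR on an effective library size, and all were whole reads within 0.001 after division by the value of 1 read. Columns of the authors' own fold changes and p-values were not used.

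Values were tested as log2(CPM + 1) with limma (3.58.1, R 4.3.3, trend) over 30 groups, for 24109 of 24467 genes, those that reached 1 CPM in 3 or more libraries, with Benjamini-Hochberg adjustment over all genes. A fold change on this scale understates that of low genes. edgeR (4.0.16) was run on the recovered reads as an alternative, besides other pseudocounts, filters, scalings, limits, NG as the control, the replicate block, the compared groups alone and each library left out. Both tests were checked on simulated data. Python (3.11.15), pandas (2.3.3), numpy (2.4.6) and matplotlib (3.10.9) were used for tables and figures.

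Members and gene lists were chosen with earlier results of these data known. The genes to be named were, by size of called log2FC, 12 risers and 12 fallers in S over LL, 4 per direction in LL over NG and in Bd21 over Bd21-3 in S, up to 5 of the interaction, members called in both directions, the 3 of highest mean CPM and up to 3 called genes of each enzyme or G2/M list; the MYB12 (Bradi2g11676), MYB59 (Bradi4g04050) and AT5G47390-type (Bradi3g14830 and Bradi2g05590) genes and members that were not DEGs were named after their values were seen. No member matched the RefSeq table, so no sequence is shown.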

Additional observations from a re-analysis of the deposited data

Results flagged for a closer look

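The log2FC of S over LL differed between the ZTs of 1 ecotype by limma's F test with adjusted p under 5e-06 for the members below, and each value is the range between the lowest and the highest log2FC over the 5 ZTs. Tank and ZT cannot be told apart in these values.

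In Bd21, MYB61 (Bradi2g36730) had the widest range, 3.33, followed by MYB86 (Bradi2g40620) with 3.14. AT2G01060 (Bradi1g36236) had a range of 2.65, MYB61 (Bradi2g11080) of 2.56 and AT3G13040 (Bradi3g03538) of 2.48. MYB25 had a range of 2.16, AT5G47390 (Bradi3g14830) of 2.06 and MYB59 (Bradi4g09490) of 2.05. AT5G47390 (Bradi2g05590) with 1.62 and the DnaJ gene (Bradi5g07300) with 1.61 had the narrowest.

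In Bd21-3, MYB86 (Bradi2g40620) had a range of 3.44, MYB15 (Bradi3g49190) of 3.42 and MYB59 (Bradi4g09490) of 3.25. MYB25 and MYB59 (Bradi2g62510) had ranges of 2.46 each, MYB61 (Bradi2g36730) of 2.40 and MYB33 (Bradi2g53010) of 2.03. MYB61 (Bradi2g11080) had a range of 1.89, AT5G47390 (Bradi3g14830) and the DnaJ gene of 1.84 each, and MYB4R1 of 1.57.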

How the results depend on the processing

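No called value of a named gene changed its direction under any alternative run. Of 120 calls of S over LL, 31 were lost when some single library was left out and 89 were kept whichever was. Of the 134 calls including LL over NG, 33 were lost when the groups compared were fitted alone, 19 with a pseudocount of 5, 7 by edgeR, 5 with a pseudocount of 0.25, 3 under median of ratios scaling and 0 with other filters, and 13 of the 120 with NG as the control. The cause was not tested.

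Counts of members moved as follows. Those at an adjusted p under 0.05 kept the other DEG limits (a range of at least 1.5 for F tests) unless stated. Members that fell in LL over NG in Bd21 (4) numbered 1 with a pseudocount of 0.25 or the compared groups alone, 2 with a pseudocount of 5 or by edgeR, and 7 with no limit on mean CPM. In Bd21-3 (1) they numbered 0 with a pseudocount of 5 and 2 at an adjusted p under 0.05. Members that changed between ZTs in LL of Bd21 (1) numbered 0 with a pseudocount of 0.25 or 5 or the compared groups alone, 2 under median of ratios scaling or by edgeR, 3 with no limit on mean CPM and 4 at an adjusted p under 0.05. In LL of Bd21-3 (3) they numbered 1 by edgeR, 0 with the compared groups alone and 5 at an adjusted p under 0.05. In NG they numbered 1 (Bd21) and 3 (Bd21-3) with the compared groups alone, 5 at an adjusted p under 0.05 (Bd21) and 3 with a pseudocount of 5 (Bd21-3). In S they numbered 0 (Bd21) and 4 (Bd21-3) with the compared groups alone, and 28 and 25 with no limit on mean CPM. A response that changed between ZTs was found for 1 (Bd21) and 6 (Bd21-3) members with the compared groups alone, for 20 and 22 at an adjusted p under 0.05, and for 16 in Bd21 with no limit on mean CPM. Without that limit 29 (Bd21) and 32 (Bd21-3) members fell in S over LL, and 2 were higher and 1 lower in Bd21 than in Bd21-3 in S. At an adjusted p under 0.05 with the other DEG limits kept, 1 member was lower in Bd21 in S and 1 had a lower response in Bd21-3. At an adjusted p under 0.05 alone, 25 members (21.9%) were higher and 22 (19.3%) lower in Bd21 in S, beside 25.1% and 21.8% of all genes. At the same limit, 11 (9.65%) had a higher and 19 (16.7%) a lower response in Bd21-3, beside 9.36% and 11.5%.

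With each library left out in turn, 10 to 11 members rose and 9 to 13 fell in S over LL in Bd21, and 14 to 15 rose and 13 to 15 fell in Bd21-3. In LL over NG 1 to 3 rose (1 without replicate 2 of LL at ZT8) and 1 to 5 fell (1 without replicate 2 of LL at ZT24) in Bd21, and 3 to 4 rose and 1 to 1 fell in Bd21-3. Changed responses numbered 9 to 12 and 9 to 11, and members changed between ZTs 10 to 14 (S), 0 to 4 (LL) and 3 to 4 (NG) in Bd21 and 12 to 16, 1 to 3 and 4 to 6 in Bd21-3. The ecotype and interaction counts were 0 to 0.

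Replicate numbers did not pair the samples: in 29 same-numbered pairs of S and LL the deviations correlated from -0.66 to 0.44, with 5 over 0.1. With the replicate block, members changed between ZTs in LL of Bd21 numbered 2, and no call of a named gene was lost. Values under 1 CPM rest on few reads, and 61 members under 15 CPM in every group could not be called.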
